A study of Mus musculus with 12 samples.

Results

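The liver of mice kept on standard chow was the baseline of this study, and its open chromatin and RNA were described here on their own. The members were the 4 Control samples of the 12 in the series: FAIRE-seq of the livers of 2 mice, and RNA-seq of the same livers. The Control mice were C57BL/6J males that had no surgery and were kept on normal chow for 28 weeks. The Sham and VSG mice, used below only to show where the Control mice differed, were males of the same strain that received a saturated high-fat diet of 60 kcal% from 8 weeks of age, for 14 weeks before and 14 weeks after an operation, apart from a liquid diet while they recovered. In vertical sleeve gastrectomy (VSG) about 80% of the stomach was removed, and the sham operation left the stomach in place. Diet and surgery therefore both separate the Control mice from the others, and their parts cannot be told apart in a comparison with either group. The RNA table gave 24071 gene symbols, of which 21940 had a start in the genome annotation, and the Control peak list gave 42204 regions.

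FAIRE-seq recovers the DNA that formaldehyde crosslinking leaves free of protein, so that a peak marks a stretch of accessible chromatin. In a hepatocyte, the main cell of the liver, a small number of secreted proteins and metabolic enzymes account for much of the messenger RNA, and their genes are read by transcription factors such as HNF1, HNF4, C/EBP and FOXA. Promoters of genes that all cells use are commonly rich in the dinucleotide CpG, whereas promoters of tissue-specific genes often are not.

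Each mouse had its own RNA values, in fragments per kilobase of transcript scaled to the number of mapped fragments (FPKM), summed over the transcripts of a gene. FPKM is scaled to transcript length, so levels of different genes were compared on this scale throughout. The peaks came as 1 list for both mice, with 1 signal per peak, so that no peak value has an error between mice and the FAIRE sequencing depth is unknown. The RNA depth is not given either, but among 2796 transcripts with a value under 0.2 in mouse 1 and above 0 in both mice, the most frequent ratio of mouse 1 to mouse 2 was 0.833, found for 344 of them. With 2 mice, values below are given for mouse 1 and then mouse 2. The tests between groups measure only the spread between these mice.

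The strongest peaks and the promoters of the most expressed genes are shown first, since the results below return to them. The 120 bases at the summit of the 5 strongest peaks outside mitochondrial-like sequence (NCBIM37, the same assembly as mm9, plus strand) all held the same run of 16 bases, AGAAAACTGAAAATCA, on one strand or the other, and this run is in capitals:
peak of rank 3, chr2:98507276-98507395: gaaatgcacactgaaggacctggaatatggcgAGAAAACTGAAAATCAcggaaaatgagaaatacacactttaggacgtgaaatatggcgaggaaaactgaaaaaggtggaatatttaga
peak of rank 6, chr9:3024434-3024553: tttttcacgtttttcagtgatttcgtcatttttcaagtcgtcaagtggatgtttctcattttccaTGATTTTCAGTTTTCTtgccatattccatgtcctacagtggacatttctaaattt
peak of rank 7, chr12:3109911-3110030: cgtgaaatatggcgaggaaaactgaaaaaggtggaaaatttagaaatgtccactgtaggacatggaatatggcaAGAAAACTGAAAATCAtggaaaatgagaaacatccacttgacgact
peak of rank 9, chr9:3000467-3000586: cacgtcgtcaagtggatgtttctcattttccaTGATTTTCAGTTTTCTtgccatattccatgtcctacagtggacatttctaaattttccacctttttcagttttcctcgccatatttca
peak of rank 10, chr9:35112979-35113098: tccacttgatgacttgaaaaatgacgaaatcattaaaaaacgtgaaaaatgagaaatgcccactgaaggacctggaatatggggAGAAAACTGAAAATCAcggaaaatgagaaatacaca

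The promoters are given as the 250 bases before the first annotated start (NCBIM37, 5′ to 3′ on the strand of the gene) for the 2 most expressed genes, both with a peak at the start. Capitals mark matches to 1 of 12 short motifs that were searched on both strands; here these were TATAAA (the TATA box) and TGTTTAC (FOXA), both in Apoa2, which did not overlap:
Apoa2, chr1:173154935-173155184, plus strand: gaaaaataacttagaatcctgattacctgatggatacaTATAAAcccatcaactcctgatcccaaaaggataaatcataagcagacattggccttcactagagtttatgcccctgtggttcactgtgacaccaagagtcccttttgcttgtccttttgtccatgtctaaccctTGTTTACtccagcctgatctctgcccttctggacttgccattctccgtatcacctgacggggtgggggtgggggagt
Apoe, chr7:20284516-20284765, minus strand: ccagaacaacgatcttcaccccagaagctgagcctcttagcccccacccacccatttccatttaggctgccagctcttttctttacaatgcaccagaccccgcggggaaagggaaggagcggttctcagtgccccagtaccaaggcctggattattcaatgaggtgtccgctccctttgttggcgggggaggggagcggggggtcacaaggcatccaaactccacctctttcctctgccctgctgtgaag

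Among the genes with values here, the RNA of the Control liver was led by apolipoproteins and other secreted proteins. The 20 most expressed genes held 27.8% of the summed FPKM in mouse 1 and 27.2% in mouse 2 and the 100 most expressed held 46.9% and 46.5%. An FPKM of at least 1 was reached by 8605 and 8634 genes, with 7993 genes reaching it in both mice, 1253 in a single mouse and 14825 in neither. Across the 7993 genes the Spearman rank correlation between the mice was 0.95, given as a description over genes, which are not independent replicates.

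Of the 20 genes, 5 encode apolipoproteins, the protein part of lipoprotein particles. Apoa2, a component of high-density lipoprotein, had the highest level of the genes with values, at an FPKM of 17303 and 14543. Apoe, a ligand of lipoprotein receptors, followed with 12481 and 11342, Apoc1 with 10943 and 9341, and Apoa1, the main protein of high-density lipoprotein, with 11117 and 8077. Apoc3, which slows the clearance of triglyceride-rich particles, had 3955 and 2823. All of them were higher in mouse 1, by 1.10 times for Apoe up to 1.40 times for Apoc3. Of the 12 apolipoprotein genes listed, 11 had an FPKM of at least 1 in both mice, and the list held 13.2% and 11.7% of the summed FPKM.

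Carriers and other plasma proteins made up the next group. Serpina3k, a secreted protease inhibitor, had 8311 and 7581, haptoglobin (Hp), which binds free hemoglobin, 5340 and 5572, and fetuin-A (Ahsg) 5256 and 5433. Fgg, a fibrinogen chain, had 4215 and 4015. Retinol-binding protein (Rbp4) had 4129 and 3518, transthyretin (Ttr), which carries thyroxine, 4067 and 3284, the vitamin D carrier Gc 3271 and 2954, and selenoprotein P (Selenop) 3073 and 3035. All 23 plasma protein genes with values had an FPKM of at least 1 in both mice, with a median of 1061 and 1164. The list names 33, and the rest, Alb, Fga, Fgb and Trf among them, were not analysed here, so ranks and shares of the summed FPKM hold only among the genes with values.

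Inside the cell, the fatty acid binding protein Fabp1 had 8787 and 7670.1, the ethanol-oxidizing cytochrome Cyp2e1 4111 and 4036, and the glutathione transferase Mgst1 3512 and 3251. The metallothioneins, which bind zinc and copper, were higher in mouse 2, Mt1 with 4506 and 5629, and Mt2, whose values lay farthest apart among the 20, with 2675 and 4196. A further entry, the microRNA hairpin Mir692-3, had 5146 and 5359. The 500 bases around its start were found 3 more times in the genome at an identity of 98.8 to 99.6%, once within an exon of Ftl2, a gene of the ferritin light chain family, so its reads could be split between near-identical copies and its level is uncertain. Ftl1, the ferritin light chain gene, had 1494 and 2381.

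**Figure D1:**
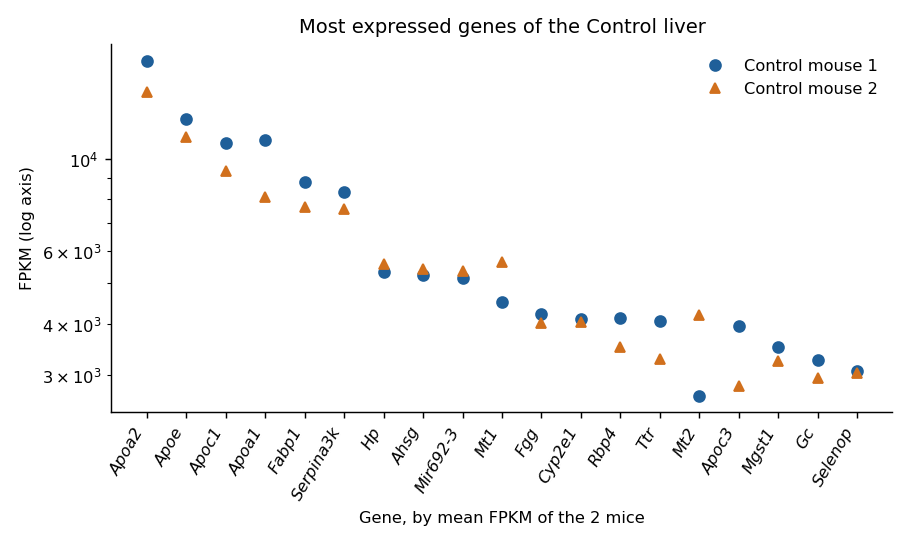
FPKM (log axis) of the 19 most expressed genes in each Control mouse, circles for mouse 1 and triangles for mouse 2, ordered by mean. Levels run from 17303 and 14543 for Apoa2 to 3073 and 3035 for Selenop, and the mice lie farthest apart at Mt2.

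The label of the tissue was checked against cell type markers. All 10 hepatocyte markers with values were at an FPKM of at least 1 in both mice, with a median of 4011 and 3054. The markers of the other liver cells lay far lower. The summed FPKM of 11 Kupffer cell markers was 52.9 and 36.3, led by the complement gene C1qa at 13.0 and 8.58. The sum of 11 sinusoidal endothelial markers was 59.6 and 28.5, led by Clec4g at 26.1 and 4.35. The 10 stellate cell markers summed to 49.7 and 51.4, of which the proteoglycan decorin (Dcn) held 40.6 and 41.7, and the 7 cholangiocyte markers to 31.0 and 33.1, of which Spp1 held 28.5 and 29.4. The 8 erythroid markers summed to 481.1 and 389.3, from hemoglobin genes and Alas2. Of 8 lymphocyte markers, none reached an FPKM of 1, and of 9 pancreas and fat markers 8 were listed at 0 in both mice. In bulk liver, fewer cells of a type and less RNA per cell cannot be told apart.

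Liver metabolism was represented as follows. The 9 genes of gluconeogenesis and glycogen all passed an FPKM of 1, among them Pck1, the cytosolic enzyme that commits oxaloacetate to glucose, at 1490 and 1485. All 7 urea cycle genes did as well, with Ass1 at 1309 and 1302, Arg1 at 879.3 and 855.6, and Cps1, the first step of the cycle, at 153.1 and 518.2. Among 10 bile acid synthesis genes the rate-limiting Cyp7a1 was lowest, at 2.28 and 2.60, and the bile acid ligase Slc27a5 highest, at 342.5 and 313.5. Of 98 cytochrome P450 (Cyp) genes 49 reached an FPKM of 1 in both mice and 22 were listed at 0 in both. Genes that are male-biased in mouse liver were present in all 7 cases with values, with Cyp2d9 at 1053 and 838.7, whereas of 10 female-biased genes 2 reached an FPKM of 1 in both mice. Fetal liver genes (0 of 7), Hox genes (0 of 39) and olfactory receptors (3 of 1094) were at or near 0.

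Some genes listed at 0 are genes that liver is known to use. The transcription factors Prox1, Onecut1, Nr5a2 and Nr1i3 were listed at 0 in both mice, as were the glycerol-3-phosphate acyltransferase Gpam and the cholesterol enzyme Hmgcs1. Such a 0 can be a failed estimate, so that for these genes it is stated only that they were listed at 0. In 1 mouse alone, Hadhb, a subunit of the mitochondrial trifunctional protein, was at 113.9 and 0, and 579 genes in all were listed at 0 in 1 mouse with an FPKM of at least 1 in the other.

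The mice were close to each other for most genes, and several lists leaned to one of them. Of 1951 genes that reached FPKM 20 in both mice, 25 were at least 2 times higher in mouse 1 and 23 in mouse 2. Together these were 2.46%. The share at least 2 times apart was 7.07% of the 7993 genes that reached FPKM 1 in both mice. It was 16.2% of the 9246 genes that reached FPKM 1 in 1 or both mice. The enzymes of cholesterol synthesis stood higher in mouse 1 for 11 of 12 members, with a median ratio of 1.91. The median was 1.004 over all 7993 genes and 1.06 over the 1951 genes. Fdps, which makes farnesyl pyrophosphate, had 179.0 and 83.3, Idi1 71.3 and 34.96, and the squalene-oxidizing Sqle 29.2 and 14.5. Scd1, the desaturase that makes oleate, was 3.64 times higher in mouse 1, at 1123 and 308.3. It was the extreme of the 10 expressed fatty acid synthesis genes, whose median ratio was 1.21, and Acacb, an acetyl-CoA carboxylase, went the other way, at 3.79 and 11.6. A lean to mouse 1 was not particular to these lists. Of 76 oxidative phosphorylation genes 71 were higher in mouse 1 and 5 lower, with a median ratio of 1.16. For 75 ribosomal protein genes these were 66 and 9 (1.15), and for 37 proteasome genes 22 and 15 (1.02).

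Genes of fatty acid oxidation leaned to mouse 2, with 8 of 11 members higher there and a median ratio of 0.88. Ehhadh, the peroxisomal bifunctional enzyme, had 78.6 and 239.9. Outside the list, chosen after their values were seen, Acsl1, which activates fatty acids, was 8.82 times and Cyp4a14 3.57 times higher in mouse 2, and the fatty acid receptor Ppara had 7.30 and 30.5. Of 11 clock genes 9 were higher in mouse 1, with the output gene Dbp at 27.3 and 16.9. Markers of other cells with an FPKM of at least 1 in both mice also differed between the mice. Here 8 of 8 sinusoidal endothelial and 7 of 9 Kupffer cell markers were higher in mouse 1, with a median ratio of 1.68 and 1.52. The rest of the 11 sinusoidal markers reached that level in 1 mouse only: Stab1 had 1.52 and 0, Stab2 0 and 1.91, and Kdr 0 and 1.49. Of 6 stellate cell markers 5 were lower in mouse 1, with a median of 0.97. Gapdh, often used as a reference, had 612.9 and 167.4, while Actb had 104.2 and 85.5. With 1 sample per mouse these differences have no test, and the part of cell makeup in them was not tested.

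The 42204 Control peaks covered 19101955 bases, with a median length of 344 and lengths from 124 to 4833. By position, 38.5% lay within 1 kb of an annotated transcript start, 6.14% elsewhere in an exon, 27.8% in an intron and 27.6% between genes. Peaks near starts were longer, with a median of 507 bases against 276 in introns and 278 between genes, and carried a higher median signal of 0.36, against 0.22 and 0.23. Their median GC content was 60.3% and their median CpG ratio, the observed over the expected number of CpG, was 0.69, against 52.7% and 0.22 in introns.

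Short motifs differed in frequency between peaks near starts and peaks elsewhere. In the 300 bases around the summit, letters of the SP/KLF motif (GGGGCGGG) stood in 24.4% of peaks near starts and 2.71% of peaks in introns, against 11.5% of all peaks, and letters of the ETS motif (CCGGAAG) in 14.8% and 2.23%, against 7.50%. Motifs of liver factors had the opposite order. The C/EBP motif (TTGCNNAA) was found in 9.50% of peaks near starts, 16.5% in introns and 16.4% between genes, against 13.6% of all peaks. The HNF4 motif (CAAAGTCCA) was found in 0.70%, 2.12% and 1.90%, against 1.51% of all, and the FOXA motif (TGTTTAC) in 2.91%, 6.30% and 5.52%, against 4.68% of all. The letters of the TATA box (TATAAA) had this order too, with 4.96%, 8.70% and 8.13%, against 6.94% of all. The part of GC content in these orders was not tested. Both strands were searched. These are matches of letters, not shown to be bound.

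The strongest signals did not lie at liver genes. The signal was 0.25 at the median and 0.14 at the lowest peak, and 96 peaks reached 1. The highest value, 141.1, belonged to chr1:24618296-24623099, of which 96.9% aligned to the mitochondrial genome. In all, 10 peaks and 9 of the 100 strongest were mitochondrial-like, meaning that at least 50% of the peak aligned to the mitochondrial sequence at an identity of at least 70%. Of the 10 strongest, 5 were of this kind.

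Outside mitochondrial-like sequence, the 10 strongest peaks were all repeated elsewhere in the genome. The first was chr2:98506340-98507572, with a signal of 115.9, over the predicted gene Gm10800. It was followed by chr9:3023808-3024672 (40.8) near Gm10718, chr12:3109793-3110156 (30.1) between genes, chr9:3000228-3001598 (25.2) over Gm10722, and chr9:35112753-35113238 (24.0) between genes. The next were chr2:98502312-98503205 (22.1) over Gm10801, chr9:3006654-3006983 (16.0) in an intron, chr9:3023373-3023730 (15.7) over Gm10718, chr2:98505099-98505445 (14.8) between genes, and chr6:103599036-103599365 (14.5) in an intron. The 250 bases at their summits had between 1 and 85 further copies, counted where 80% or more of the length aligned with 95% or more of identical bases. The 16-base run shown above occurred in 17 of the 60 strongest peaks and in 28 of all 42194 outside mitochondrial-like sequence. Its surroundings read as the mouse major satellite, the tandem repeat next to the centromeres of mouse chromosomes, and 13 of the 60 strongest peaks lay in the first 3.1 Mb of chromosome 9. The authors kept reads that mapped to a single place, and these values are given as deposited.

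Below these, the strong peaks were those of gene starts. Among the 300 strongest peaks, 257 outside mitochondrial-like sequence had no further copy, and 235 of them (91.4%) lay within 1 kb of a start, with a median GC content of 60.6%. Copies were searched in the assembly only, so a repeat that was assembled once counts as having none. Those without a copy there, a split chosen after the strongest peaks were seen, began with a pair on chromosome 17 beside AY036118, with signals of 6.45 and 6.11. The strongest at the start of a protein-coding gene was chr1:90173681-90174545 with a signal of 2.77, between the starts of Hjurp, a chaperone of the centromeric histone, and Trpm8, the cold-sensing channel. Further peaks at starts with no copy in the assembly were those of Sfi1 (2.13), the transcription factor Sp1 (1.29), the mitochondrial iron carrier Slc25a37 (1.18), the replication clamp Pcna (1.14), the immediate early gene Junb (1.14) and the nuclear import factor Kpnb1 (1.10). Their FPKM was moderate: 3.92 and 4.22 for Sp1, 24.4 and 23.8 for Pcna, and 62.8 and 30.2 for Junb.

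**Figure D2:**
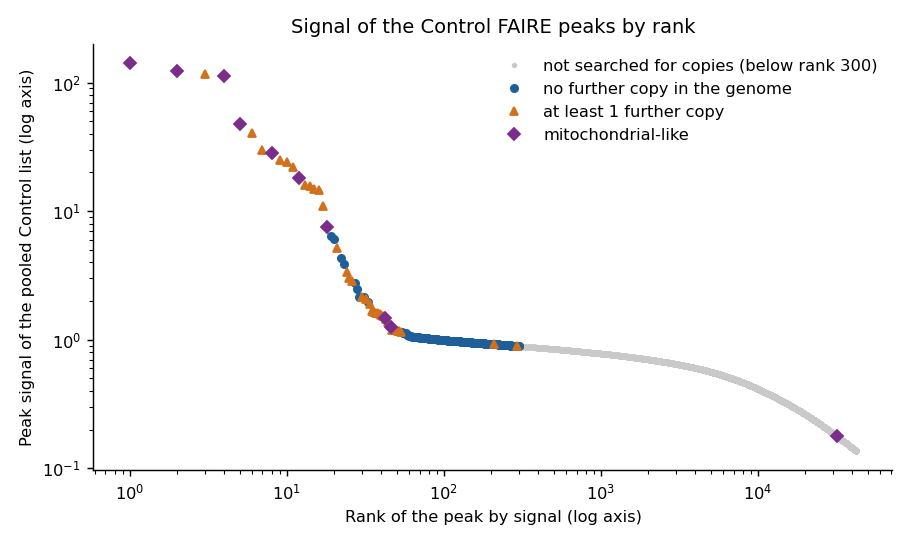
Signal of each Control peak against its rank, both on log axes, marked by mitochondrial-like sequence (diamonds), further copies in the genome (triangles), no further copy (circles) or not searched (dots). Copies were searched in the assembly only. All signals above that of the first peak with no further copy there, 6.45, belong to mitochondrial-like or repeated sequence, and 96 peaks reach 1.

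Most expressed genes had open chromatin at their start, and most others did not. A gene was counted as having a start peak when any base of a Control peak lay within 1 kb of any of its annotated transcript starts. Of 7887 genes that reached FPKM 1 in both mice, 7248 had one, which is 91.9% (95% Wilson interval 91.3 to 92.5%). Of 12875 genes under 1 in both mice 3417 had one, or 26.5% (25.8 to 27.3%), and of the 1178 genes at 1 or more in a single mouse 971 did, or 82.4%. These intervals cover counting error over genes only. With the RNA of either mouse alone, the shares were 91.0% and 91.5% for genes at 1 or more and 29.2% and 28.8% for genes under 1.

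Seen from the other side, the 11636 genes with a start peak had a median FPKM of 2.91 and 3.05, with quartiles of 0.42 and 11.4 in mouse 1 and 0.40 and 11.6 in mouse 2. The 10304 genes without one had a median of 0 in both mice, and 58.2% of them were listed at 0 in both, against 9.10% of genes with a peak. Genes with a peak held 91.1% and 91.3% of the summed FPKM of genes with a start.

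The share rose with the level of expression only up to a point. It was 15.0% at a mean FPKM of 0, 24.3% up to 0.1, 58.5% up to 1, 88.2% up to 5 and 94.2% up to 20. Above that it was 93.5% up to 100, 88.6% (85.8 to 91.0%) from 100 to 1000, and 92.9% (83.0 to 97.2%) for the 56 genes over 1000, so that the class from 100 to 1000 lay below the class from 5 to 20. The median signal among genes with a peak was 0.41 at an FPKM of 0, 0.30 up to 0.1, 0.50 from 1 to 5, 0.58 from 20 to 100, 0.59 from 100 to 1000 and 0.54 over 1000. Over all 11636 genes with a peak the Spearman correlation of signal and FPKM was 0.27, with 0.26 for each mouse, given as a description across genes that share libraries and base composition.

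The CpG content of the start went with the presence of a peak at every level. Starts were called CpG-rich when the 1000 bases around them had a CpG ratio of at least 0.6 and a GC content of at least 50%. Of expressed genes, 96.9% of 5578 CpG-rich starts and 79.9% of 2309 CpG-poor starts had a peak. Of genes under 1 in both mice, 57.6% of 3653 CpG-rich and 14.2% of 9222 CpG-poor starts did. Expressed genes with CpG-poor starts were not lower in RNA, with a median FPKM of 9.30 against 7.42. Among genes from 100 to 1000 the shares were 99% for CpG-rich and 77.9% for CpG-poor starts.

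**Figure D3:**
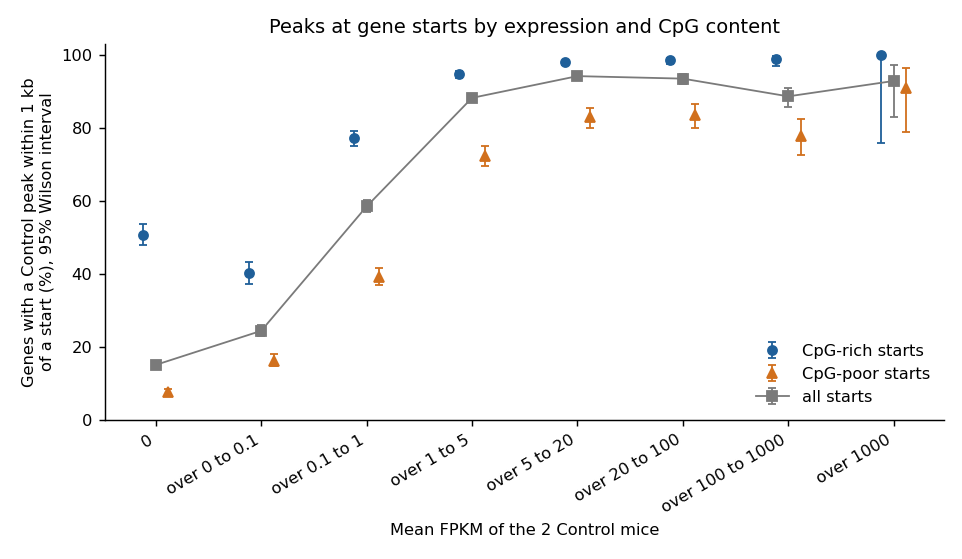
Percentage of genes with a Control peak within 1 kb of a start, by mean FPKM of the 2 mice, for CpG-rich starts (circles), CpG-poor starts (triangles) and all starts (squares, joined), with 95% Wilson intervals. CpG-rich starts lie above CpG-poor starts in each class, from 50.7% against 7.63% at an FPKM of 0 to 99% against 77.9% between 100 and 1000, and the intervals overlap only over 1000.

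The most expressed genes belonged largely to the CpG-poor kind. Of the 20 most expressed genes with a start 18 had a peak, and 3 had a CpG-rich start (Mt1, Mt2 and Rbp4), against 45.4% of all 21940 genes. Among the 100 most expressed, 89 had a peak and 27 were CpG-rich. The signal of a start peak did not follow the rank of the gene. Mt1 had 0.94, higher than 98.7% of start peaks, and Apoc3 0.72, at the 84.1 percentile, whereas Apoa2 had 0.60 (66.0 percentile) and Apoe 0.50 (49.7 percentile). Fabp1 with 0.21, Serpina3k with 0.21, Gc with 0.22 and Rbp4 with 0.23 were higher than 10.4, 10.5, 11.5 and 13.0% of start peaks. The letters TATAAA were found in 19% of the promoters of the 100 most expressed genes, against 13.0% of all promoters. A promoter here was the 300 bases from 250 before to 50 after the start. The share was 15.2% for the 500 most expressed genes and 6.98% for expressed genes with a peak. It was 19.09% for expressed genes without a peak and 19.97% for genes under FPKM 1 in both mice without a peak. The 19% is therefore not given as a trait of highly expressed genes. TGTTTAC, shown above for Apoa2, stood in 3.14% of all promoters.

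Positions were measured from the first annotated start along the strand, so further starts of a gene could lie only after it. The peaks were centred on this start. Above an FPKM of 1, the position 1000 bases after it was more often in a peak than that before it. Genes had a median of 1 start at an FPKM of 0, 2 up to 1, 3 from 1 to 1000 and 2 over 1000. The part of further starts in this difference was not tested. For genes with an FPKM from 20 to 1000, 79.4% had the start itself inside a peak, 8.83% the position 1000 bases before and 17.96% the position 1000 bases after. For genes from 1 to 20 the values were 74.8%, 6.60% and 11.1%, and for genes at 0 they were 9.45%, 1.64% and 1.71%. For genes over 0 and up to 1 they were 30.6%, 3.25% and 2.80%, higher before the start than after it. The 56 genes over 1000 had a broad profile, with 82.1% at the start and 32.1% at 1000 bases after it. Of the expressed genes, 6674 had a peak over a start, 506 within 500 bases and 68 from there to 1000 bases. Just outside the window, 45 had their nearest peak between 1000 and 1500 bases away.

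**Figure D4:**
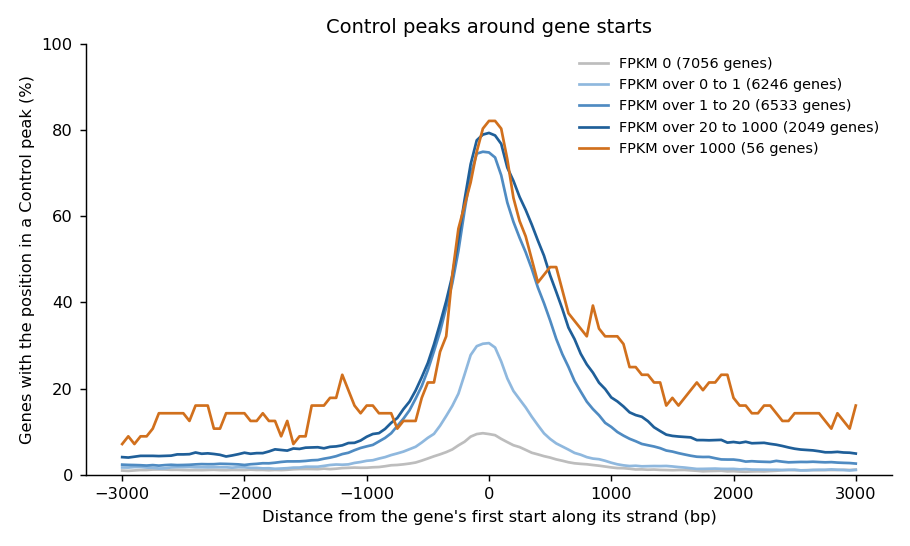
Percentage of genes with a given position inside a Control peak, against the distance in bases from the first annotated start along the strand of the gene, for 5 classes of mean FPKM. Each curve is highest at or within 50 bases of the start, at 9.65% for FPKM 0, 30.6% for over 0 to 1, 74.99% for over 1 to 20, 79.4% for over 20 to 1000 and 82.1% for over 1000.

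Expressed genes without a start peak numbered 639, with a median FPKM of 4.27 and 4.22 against 7.83 and 8.15 for those with one. Of them 27.4% were CpG-rich, against 74.5%, and 13.3% had a further copy of their start in the genome, against 0.48%. Their nearest peak lay at a median of 16133 bases, and 173 had one within 5 kb. Mir692-3 had the highest FPKM of them, with its nearest peak 16133 bases away. Cyp3a11, a drug-metabolizing cytochrome, had an FPKM of 1603 and 1293 with no peak within 129615 bases. Ces1c and Ces3a, carboxylesterases, had 1026 and 941.0, and 737.2 and 726.3, the latter with a peak 2196 bases away. Gstp2, a glutathione transferase, had 948.7 and 972.6, Rps27rt, a copy of a ribosomal protein gene, 737.5 and 674.1, and the cytochrome Cyp2f2 730.4 and 657.0, with a peak 1346 bases away.

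Also among the 10 highest were the small nucleolar RNAs Snord69, at 1139 and 1368, and Snord47, at 1171 and 281.3. The ratio of Snord69 between the mice was 0.833, the ratio most frequent above among the lowest values. The median ratio of the 23 expressed small nucleolar RNAs was 0.833 too. How many fragments these values rest on is not known, so their levels are uncertain. By name, 11 of the 62 genes without a start peak and with an FPKM of at least 100 were Cyp genes and 6 were Ugt genes, which encode glucuronosyltransferases. The share of these families among all genes at that level was not counted, so these numbers are a description only. Over the Cyp family, 26 of 49 expressed genes had a start peak (53.1%), against 79.9% of all expressed genes with CpG-poor starts. Of the 49, 5 had a CpG-rich start and 10 had a further copy of their start. Whether reads that map to several places account for missing peaks was not tested.

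Some genes with a strong start peak and an FPKM under 1 stood beside an expressed gene, so that 1 peak was counted for both. Of the genes under 1 with a start peak, 1059 (31.0%) were listed at 0 in both mice, which does not show that RNA was absent: the ribosomal protein genes Rpl26, Rpl30, Rpl34, Rps19 and Rps27, which every cell uses, were listed at 0 too, with start peaks of 0.63 to 0.86. Of the 3417 genes under 1 in both mice with a start peak, 550 (16.1%) had the start of an expressed gene within 1 kb, against 68 (0.72%) of the 9458 without a peak, and 61.6% were CpG-rich, against 16.4%. The strongest start peak of a gene under 1, with a signal of 2.77, was that of Trpm8, listed at 0 in both mice. Trpm8 shared it with Hjurp (0 and 2.45), which was listed at 0 in mouse 1 and so was not counted as expressed. Next came the noncoding Gm16677, listed at 0, at the peak of signal 1.14 shared with the expressed Entpd4 (4.71 and 4.32). Xrra1 (0.015 and 0.052) stood beside Spcs2, a signal peptidase subunit at 20.2 and 17.3, and Slx4ip beside Mkks at 7.05 and 9.01. Others encode proteins of dividing cells: the histone chaperone Asf1b had 0.20 and 0.091 with a signal of 1.13, and the mitotic kinesin Kif11 0.26 and 0.33 with a signal of 1.05. Ift122 (0.87 and 0.70) and Mbd4 (0.47 and 0.46) shared a peak of 1.05, Psmc3ip was listed at 0 with 1.04, and Zfp46 had 0.83 and 0.73 with 1.03. Without genes that had an expressed neighbour, 23.4% of 12257 genes under 1 had a start peak.

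By gene list, start peaks were nearly complete for genes of general use. All 73 expressed ribosomal protein genes, all 37 expressed proteasome genes and 75 of 76 of oxidative phosphorylation had one, against the 91.9% of all expressed genes. Among expressed genes with CpG-rich starts, 96.9% had one. Starts were CpG-rich for 64 of the 73 ribosomal protein genes, 31 of 39 proteasome genes and 64 of 83 of oxidative phosphorylation. The shares lay near that 96.9%, so they are not given as a trait of these lists. All 26 liver transcription factors had one, the 4 listed at 0 included, among them Prox1 with a signal of 0.34 and Nr1i3, the nuclear receptor CAR, with 0.63. The highest in this list were Creb3l3 (0.79) and Hnf4a (0.67). All 14 clock genes had one, with a median signal of 0.70, led by Per1 at 0.95 and Dbp at 0.90, although Per1 had an FPKM of 3.41 and 6.33. All 12 cholesterol synthesis genes with a start, all 11 of fatty acid synthesis and all 12 of fatty acid oxidation had one as well. CpG-rich starts were found for 11 of the 14 clock genes and 10 of the 26 transcription factors. For cholesterol synthesis these were 9 of 12, for fatty acid synthesis 6 of 11 and for fatty acid oxidation 8 of 12.

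Markers of other liver cells had few start peaks even where their RNA was measured. None of the 11 Kupffer cell markers had one, although 9 had an FPKM of at least 1 in both mice. Neither did any of the 6 stellate cell markers or the 4 erythroid markers at that level, Hba-a1 with 256.5 and 197.2 and Dcn with 40.6 and 41.7 among them. Of 8 expressed sinusoidal endothelial markers 4 had one, with signals from 0.15 to 0.19, under the 0.25 of the median peak. Over these lists and those of cholangiocytes, neutrophils and lymphocytes, 4 of 30 expressed genes had a start peak (13.3%, 5.31 to 29.7%). Taking the 22 of them with CpG-poor starts and a mean FPKM under 20, with a median of 3.83, 4 had a peak (18.2%), against 78.0% of all 1519 genes of that kind, with a median of 4.52. Of the hepatocyte markers 9 of 10 had one, Cps1 being the exception.

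Developmental regulators of other tissues stood apart in the other direction, with CpG-rich starts that were not open. Of 29 with an FPKM under 1 in both mice and a CpG-rich start, 2 had a peak (6.90%), against 57.6% of all such genes: Neurog2, at a signal of 0.21, and Msx1, at 0.36. Pax6, with a CpG-poor start, had one of 0.17. Pax2 and Sox2, regulators of kidney and nerve cell development, had none within 1 kb, with their nearest peaks at 1054 and 1980 bases. Of 39 Hox genes 8 had a peak, with a median signal of 0.18, and of 1087 olfactory receptors 1 did. Of zinc finger genes named Zfp with an FPKM under 1, 49 of 65 with CpG-rich starts had a peak (75.4%), against the same 57.6%. Only 26 of 358 Zfp genes were listed at 0 in both mice. Of all genes with CpG-rich starts and a mean FPKM over 0.1 to 1, 77.1% had a peak. The Zfp share lay near that, so it is not given as a trait of the family.

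**Figure D5:**
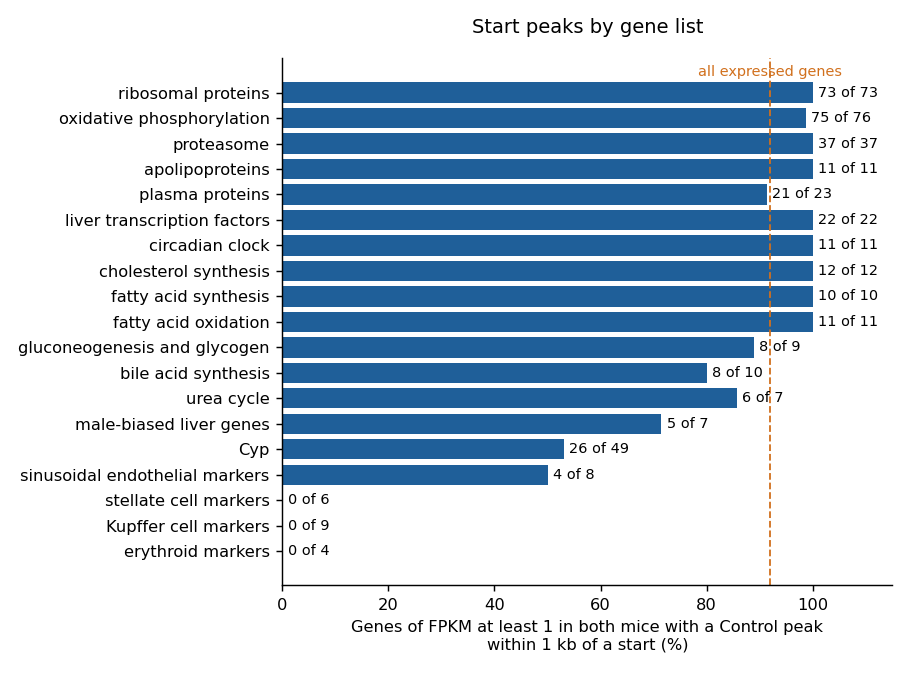
Percentage of genes reaching FPKM 1 in both Control mice that had a Control peak within 1 kb of a start, by gene list, with the number of genes beside each bar and the 91.9% of all expressed genes as a dashed line. Lists of general and metabolic genes reach 71.4 to 100% apart from Cyp (53.1%), and lists of stellate, Kupffer and erythroid markers are at 0.

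Against the operated mice on high-fat diet, no gene of the 20 most expressed passed the test. The test was limma on log2(FPKM + 1) over the 9769 genes that reached FPKM 1 in 2 or more of the 6 mice, at an adjusted p under 0.1. Of all genes tested, 0.307% (30) passed between Sham and Control mice and 0.287% (28) between VSG and Control mice, with 0 of 20 of the most expressed in either. The 2 comparisons share the Control mice. With 2 mice against 2, an exact permutation test of 1 gene cannot go below p = 0.333.

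Metallothioneins came nearest among the 20 in VSG mice, where Mt1 was at 869.8 and 555.4 and Mt2 at 377.7 and 307.2. These values lay below those of both Control mice, with a log2(FPKM + 1) difference of -2.86 (SE 0.36, adjusted p = 0.131 by limma) for Mt1 and -3.29 (SE 0.46, adjusted p = 0.173 by limma) for Mt2. Hp had 14410 and 22141 in Sham mice, above the 5340 and 5572 of the Control mice, with a difference of 1.71 (SE 0.58, adjusted p = 0.413 by limma). Sham mouse 2 was the lowest of the 6 mice for 11 of the 20 genes and VSG mouse 2 for 6.

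Most genes that passed were listed at 0 in all mice of a group: 20 of the 30 and 21 of the 28. Those with a value above 0 in all 6 mice, a choice made after the values were seen, numbered 8 and 5. Tat, which degrades tyrosine, was at 1376 and 1477 in Control mice, 210.2 and 187.6 in Sham and 232.6 and 282.6 in VSG mice, with no overlap. It was 7.17 times higher in Control than in Sham mice (log2 difference Sham minus Control -2.84, SE 0.24, adjusted p = 0.0447 by limma) and 5.54 times higher than in VSG mice (-2.47, SE 0.24, adjusted p = 0.0676 by limma). The call for Sham was lost without either Control mouse, and that for VSG without any 1 of the Control or VSG mice, at differences from -2.79 to -2.89 and from -2.33 to -2.61.

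Desaturases related to Scd1 had the same order. Scd3 and Scd4 reached FPKM 1 only in the Control mice and so entered the test only through the group where they were high, and their calls are given as a description. Scd3 was at 8.59 and 10.1 in Control mice against 0.13 and 0.15 in Sham and 0.43 and 0.16 in VSG mice (-3.18, SE 0.25, adjusted p = 0.0303 and -3.003, SE 0.25, adjusted p = 0.0401 by limma). Scd4 was at 4.49 and 5.23 against 0.064 and 0.16, and 0.22 and 0.098, and passed in both comparisons. Scd2, at 5.50 and 6.49 against 0.32 and 0.32 in Sham mice, passed in that comparison. The uncoupling protein Ucp2 was lower in Control mice, at 10.04 and 8.42 against 42.9 and 50.9 in Sham mice (2.23, SE 0.22, adjusted p = 0.0695 by limma). Ly6d, a cell surface antigen, was at 1.01 and 1.22 against 82.5 and 148.4 (5.72, SE 0.57, adjusted p = 0.070 by limma). With 1 Control mouse Scd3 and Scd4 no longer met the filter, with a pseudocount of 0.1 none of the 3 Scd genes passed, and without either Sham mouse Ly6d and Scd2 did not pass, nor did Scd4 without Sham mouse 1. For VSG, neither Scd3 nor Scd4 passed without either VSG mouse. Leaving out either Control mouse, no gene passed in either comparison by limma, the only tool run, with 511 to 564 genes at an unadjusted p under 0.05 for Sham and 460 to 517 for VSG.

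Small nucleolar RNAs had the most calls of the lists, 5 of 49 for Sham and 3 of 49 for VSG, against 0.307% and 0.287% of all genes. All of those called were listed at 0 in both mice of a group, such as Snord72, listed at 0 in Control mice and at 707.5 and 817.1 in Sham mice. They entered the test only through the other mice, and such a 0 can be a failed estimate. Their calls are therefore given as a count only, with no direction drawn. Of 60 Cyp genes, 1 passed for Sham and 2 for VSG. Cyp2b10, at 8.46 and 8.81 in Control mice, passed in both comparisons. It entered the test only through the Control mice, so no direction is drawn from its calls. Cyp3a25 passed for VSG, but it was listed at 0 in both Control mice, where a 0 can be a failed estimate, so no direction is drawn. None of the tested genes of the hepatocyte, apolipoprotein, plasma protein, urea cycle, gluconeogenesis, bile acid, cholesterol or fatty acid lists passed in either comparison. The median log2 difference Sham minus Control was -1.51 for the 7 urea cycle genes and -0.85 for the 9 of gluconeogenesis and glycogen, against 0.03 over all genes tested. The same medians for VSG minus Control were -0.55 and -0.37, against 0.13. For the 11 Kupffer cell markers it was 1.03 in Sham and 1.85 in VSG mice, against 0.03 and 0.13, with sums of 136.4 and 127.8, and 104.7 and 342.5, above the Control sums of 52.9 and 36.3. The median was 2.05 and 1.02 for the 3 neutrophil markers tested, -1.07 and 0.05 for the 10 sinusoidal endothelial markers, -0.20 and 0.31 for the 7 stellate cell markers, and -0.33 and 1.61 for the 4 erythroid markers, whose sum was 609.0 in VSG mouse 1 and 2538 in VSG mouse 2. The part of these cells in the differences above was not tested.

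Of the Control peaks, 87.8% overlapped a Sham peak by at least 1 base and 84.8% a VSG peak, and these lists held 52881 and 44539 peaks, of which 69.2% and 80.9% overlapped a Control peak. Control peaks near starts were found in the Sham list in 87.7% of cases and in the VSG list in 90.5%, and those elsewhere in 87.9% and 81.2%. The share of expressed genes with a start peak was 91.9% in the Control, 91.8% in the Sham and 92.5% in the VSG list, using the RNA of the Control mice throughout. Each list pools 2 mice, so these overlaps have no replicate error.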

How the data were processed

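FAIRE-seq reads were aligned by the authors to mm9 with bowtie1, and only uniquely mapped, properly paired and deduplicated reads were kept. F-seq gave each peak the signal that the authors deposited, and peaks reproducible between both mice of a group (IDR) were pooled in 1 list. RNA reads were aligned with TopHat2, and the authors deposited FPKM from Cufflinks, 1 value per RefSeq transcript in each mouse. The labels state poly(A) selection of the RNA and the methods of the study state depletion of ribosomal RNA, and which was used is not settled here. Tables of the authors' own DESeq2 comparisons (fold changes and p-values) and their site lists were not used.

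FPKM was summed per symbol: 34610 of 34933 transcript identifiers found a symbol, and 21940 of 24071 symbols a start in NCBIM37 (GENCODE vM1). No RNA or FAIRE depth per sample could be read from these values. Mitochondrial-like sequence and copies were found with blastn 2.17.0 and, at starts, minimap2 2.31. Groups were compared with limma 3.58.1 in R 4.3.3 on log2(FPKM + 1) in 1 fit of all 6 mice, with a trend in the variance, no replicate block and Benjamini-Hochberg adjustment over 9769 genes at an FDR of 0.1. The other steps used Python 3.11.15 with pandas 2.3.3 and scipy 1.17.1. The limma step and the peak search were tested on simulated data.

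Genes named were the 20 of highest mean Control FPKM, the 10 of highest FPKM without a start peak, the 10 under FPKM 1 with the strongest start peak, and examples from gene lists; peaks named were the 10 strongest outside mitochondrial-like sequence. Some items that these rules name are not reported here. Members and lists were chosen with earlier results of these data known.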

Additional observations from a re-analysis of the deposited data

How the results depend on the processing

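The contrast between expressed and other genes kept its direction in each alternative. For expressed and for unexpressed genes, the share with a start peak was 91.0% and 24.6% with a window of 500 bp, 94.1% and 35.3% with 5 kb, 82.8% and 18.9% with the 50% of peaks of highest signal, 93.8% and 39.8% at an FPKM threshold of 5, 83.4% and 17.2% at 0.1, and 87.0% and 15.7% over genes with a single start. Leaving out either Control mouse gave 91.0 to 91.5% and 28.8 to 29.2%. Without genes beside another expressed gene and without expressed genes whose start had a copy, an alternative chosen after seeing the data, the shares were 92.1% and 23.4%. Copies were not searched for unexpressed genes. The median FPKM of genes with a peak was 3.18, 2.32 and 3.75 with 500 bp, 5 kb and the strongest 50%, 2.82 with the highest transcript, and 2.91 to 3.05 with 1 mouse, and that of genes without one stayed at 0. The rank correlation of signal and FPKM was 0.25, 0.32 and 0.18 in the first 3 of these and 0.26 with either mouse alone. The share of the 20 most expressed genes was 27.2 to 27.8% with either mouse, and the number of mitochondrial-like peaks was 9 under both alternatives.

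The counts of genes that differed from Control mice were less stable. Without the filter, 62 genes passed for Sham. Same-numbered mice of different groups are different animals and their deviations correlated at 0.11, 0.058 and 0.029, so the numbers do not pair them; with the replicate number as a block, 9 genes passed for Sham and 10 for VSG. Leaving out 1 mouse gave 0 to 169 genes for Sham and 0 to 10 for VSG: 0 without either Control mouse, 57 without Sham mouse 1 and 169 without Sham mouse 2, and 10 and 5 without VSG mouse 1 and 2. For the genes that passed and were above 0 in all 6 mice, none of 109 alternative values reversed, and not all of them still passed. These genes were chosen by passing in the same data, so the lack of reversals is no support for their direction. With the block none of these genes passed, and without the filter Tat did not pass for VSG nor Scd2 for Sham. Peak values have no error between mice, since both mice were pooled.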
